A study of Saccharomyces cerevisiae with 6 samples.

Results

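Reads were followed under 4 features of the budding yeast Saccharomyces cerevisiae that lie on the strand opposite mitochondrial genes: YLR349W opposite DIC1, YPR059C opposite YMC1, YOR135C opposite IDH2 and YAL047W-A opposite GEM1. The 4 were named by their identifiers, out of 7127 features quantified in each library. The strain in all 6 libraries was BY4741, a haploid used widely in laboratories, whose URA3, MET17, LEU2 and HIS3 genes are deleted. Cultures growing exponentially on Synthetic Complete medium were starved of nitrogen for 1 h (2 libraries), starved of potassium for 1 h (2 libraries), or kept in growth for 1 h without treatment as the control (2 libraries). The study concerns autophagy under potassium starvation. The labels give a batch number, 1 or 2, to each library of a group and do not say that the libraries are separate cultures, so the p-values rest on variation between 2 libraries a group that may be technical.

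Mitochondria take up and release metabolites through a family of carriers in the inner membrane, and their matrix houses the citric acid cycle. DIC1 encodes the dicarboxylate carrier, which exchanges malate and succinate for phosphate. YMC1 encodes another inner membrane protein of that family, with a less settled substrate. IDH2 encodes a subunit of the NAD-dependent isocitrate dehydrogenase, the citric acid cycle enzyme that yields 2-oxoglutarate, the carbon skeleton on which ammonium is fixed as glutamate. GEM1 encodes the yeast Miro protein, a GTPase of the outer membrane that acts on mitochondrial shape and inheritance and associates with contact sites to the endoplasmic reticulum.

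None of the 4 features is in the R64 reference annotation, and each was placed at the 1 nearby position where an open frame has the length the files give. YLR349W is a 507-base frame on the plus strand at chrXII:827521-828027, with 353 bases opposite DIC1 (minus strand, 826977 to 827873) and 154 bases before the DIC1 start codon. YOR135C covers 342 bases of the minus strand at chrXV:580159-580500, with 251 bases opposite IDH2 (580250 to 581359) and 91 before its start codon. YAL047W-A covers 330 bases of the plus strand at chrI:54584-54913, with 206 bases opposite GEM1 (52801 to 54789) and 124 before its start codon. YPR059C differs in position: its 387 bases on the minus strand at chrXVI:674314-674700 cover the last 361 coding bases of YMC1 (673751 to 674674) and 26 bases past the stop codon. Each of the 4 genes has 1 coding exon. The stretches below show where each counted feature meets the end of its gene. They are 60 bases of the feature's own strand, 5′ to 3′, from R64, and the capitals mark the complement of the gene's start codon, or for YPR059C of its stop codon.
YLR349W (chrXII:827814-827873, plus strand): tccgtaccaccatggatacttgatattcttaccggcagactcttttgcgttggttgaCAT
YOR135C (chrXV:580250-580309, minus strand): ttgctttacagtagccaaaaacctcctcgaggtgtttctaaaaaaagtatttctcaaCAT
YAL047W-A (chrI:54730-54789, plus strand): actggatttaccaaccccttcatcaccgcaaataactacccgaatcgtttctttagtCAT
YPR059C (chrXVI:674615-674674, minus strand): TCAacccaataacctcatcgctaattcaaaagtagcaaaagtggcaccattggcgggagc

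**Figure D1:**
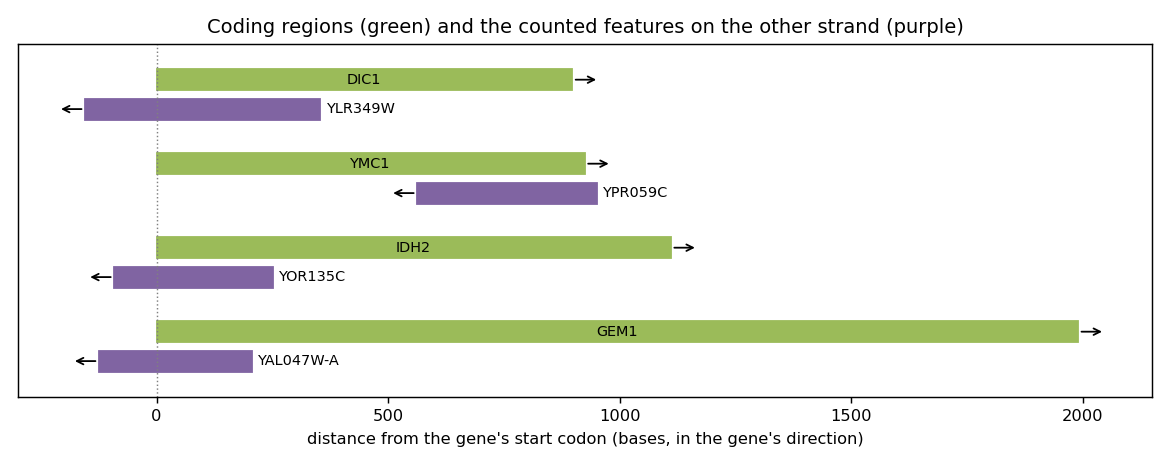
Position of each counted feature (purple) against the coding region of the gene on the other strand (green), in bases from the gene's start codon, with arrows for the direction of each strand. Features YLR349W, YOR135C and YAL047W-A reach 154, 91 and 124 bases beyond the start codon, while YPR059C lies at the far end of YMC1.

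The opposite strand held nearly all reads at these loci. Over the 6 libraries YLR349W held 1458 reads and the DIC1 identifier 15, YPR059C held 3352 and YMC1 31, YOR135C held 3293 and IDH2 8, and YAL047W-A held 185 and GEM1 25. Per effective base (the length over which a fragment can start) the feature exceeded the gene 244-fold for DIC1, 529-fold for YMC1, 3810-fold for IDH2 and 159-fold for GEM1. These ratios rest on 8 to 31 reads of the gene identifiers. Effective lengths were 81.1 to 258 bases for the features and 648 to 1740 for the genes, so the sizes of the ratios depend on the fragment length assumed. At most such loci the feature exceeded the gene, in 338 of 355 pairs (those whose 2 strands together averaged 20 reads or more). The files do not tell whether the reads under a feature belong to the message of the opposite gene or to an RNA of the feature's own strand, and the values below are reads under the feature, named by the opposite gene.

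Libraries held 357839 to 425919 reads, a shallow depth. Features opposite the ribosomal RNA genes took 17.4% to 25.3% of reads in 5 libraries and 40.5% in potassium library 2, and the 2 libraries of each group differed by more than counting error (chi-square divided by its degrees of freedom 6.27 for nitrogen, 20.1 for potassium, 5.59 for the control). Scaling matters in nitrogen starvation. Levels in CPM (reads divided by the library's scaled size) and log2 fold changes use TMM sizes, and a second scaling, computed over the 344 tested features paired with an opposite gene, shifted the median over all 2325 tested features upward, on the log2 scale, by 1.25 for nitrogen over control, 0.21 for potassium over control and 1.04 for nitrogen over potassium. The edgeR quasi-likelihood test was run on all 2325 features, with Benjamini-Hochberg adjustment over them, and an adjusted p below 0.05 was called.

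Nitrogen starvation was compared with the control to see which transcripts respond when the nitrogen source is withdrawn. Reads opposite the dicarboxylate carrier gene DIC1 and the isocitrate dehydrogenase gene IDH2 fell to about the same degree, while reads opposite the carrier gene YMC1 and the Miro gene GEM1 rose. All 4 were called, 2 higher and 2 lower. GEM1 entered the test through its nitrogen libraries alone, as described below, so its call adds no support. In these bulk cultures less RNA in every cell and fewer cells that hold it cannot be told apart. Over all features tested 46.2% were called, 25.8% higher and 20.4% lower, and with the second scaling 63.7%, 56.0% higher and 7.78% lower. Among the paired features 66.3% were called, 5.81% higher and 60.5% lower, and with the second scaling 53.2%, 26.5% higher and 26.7% lower. The second scaling centres the paired features, members included, near no change (median log2 fold change 0.068 here). A near balance of their higher and lower shares under it is therefore built in, in every comparison.

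The DIC1 feature held 256 and 160 reads in the nitrogen libraries, against 549 and 384 in the control libraries. In CPM these were 332 and 217 in nitrogen starvation and 1867 and 1566 in the control, so that the groups did not overlap. Means were 274 ± 81.3 CPM in nitrogen starvation and 1716 ± 213 CPM in the control (SD, n = 2 each). The log2 fold change was -2.65 (SE 0.26, edgeR adjusted p = 0.00011), or -1.40 with the second scaling (adjusted p = 0.0013). The fall was seen within each batch, by 2.49 in batch 1 and 2.85 in batch 2 on the log2 scale. Paired features as a whole were lower too, with a median log2 fold change of -1.19, and 64 of the 344 had a lower value than DIC1.

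The IDH2 feature held 361 and 362 reads under nitrogen starvation, against 786 and 827 in the control. It averaged 479 ± 15.8 CPM in nitrogen starvation and 3023 ± 495 CPM in the control (SD, n = 2 each), again with no overlap between the groups. The log2 fold change was -2.66 (SE 0.28, edgeR adjusted p = 0.00015), or -1.40 with the second scaling (adjusted p = 0.00069). Of the 344 paired features 63 had a lower log2 fold change than IDH2. On deposited TPM values, which are relative to all reads of a library and carry no further scaling, the falls of DIC1 and IDH2 were smaller, at -0.64 and -0.61, and were not called (limma adjusted p = 0.27 and 0.12).

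The YMC1 feature held 1454 and 1315 reads in the nitrogen libraries, against 195 and 148 in the control libraries, so its rise was visible in the raw counts. It averaged 1832 ± 73.1 CPM in nitrogen starvation and 633 ± 42.15 CPM in the control (SD, n = 2 each). The log2 fold change was 1.53 (SE 0.25, edgeR adjusted p = 0.0016), or 2.78 with the second scaling (adjusted p = 2.1e-05). The within-batch differences were 1.51 and 1.56. YMC1 was called higher in every setting run, in fits that left out any of the 6 libraries too, and of the 344 paired features 326 had a lower log2 fold change.

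The GEM1 feature was the least abundant, with 57 reads (95% Poisson interval 43.2 to 73.8) and 90 reads (72.4 to 110.6) in the nitrogen libraries, against 9 (4.12 to 17.1) and 5 (1.62 to 11.7) in the control libraries. These intervals cover counting error only. It averaged 97.8 ± 33.9 CPM in nitrogen starvation and 25.5 ± 7.225 CPM in the control (SD, n = 2 each). The log2 fold change was 1.91 (SE 0.47, edgeR adjusted p = 0.0096), or 3.16 with the second scaling (adjusted p = 0.00081). The feature passed the filter on low counts, applied before testing, only through its nitrogen libraries, where it was highest. This call is therefore not read as support for a rise. Of the 344 paired features 332 had a lower log2 fold change than GEM1. The rise was 1.27 in batch 1 and 2.58 in batch 2, and the call was lost without control library 2 (adjusted p = 0.072) or nitrogen library 2 (adjusted p = 0.055).

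**Figure D2:**
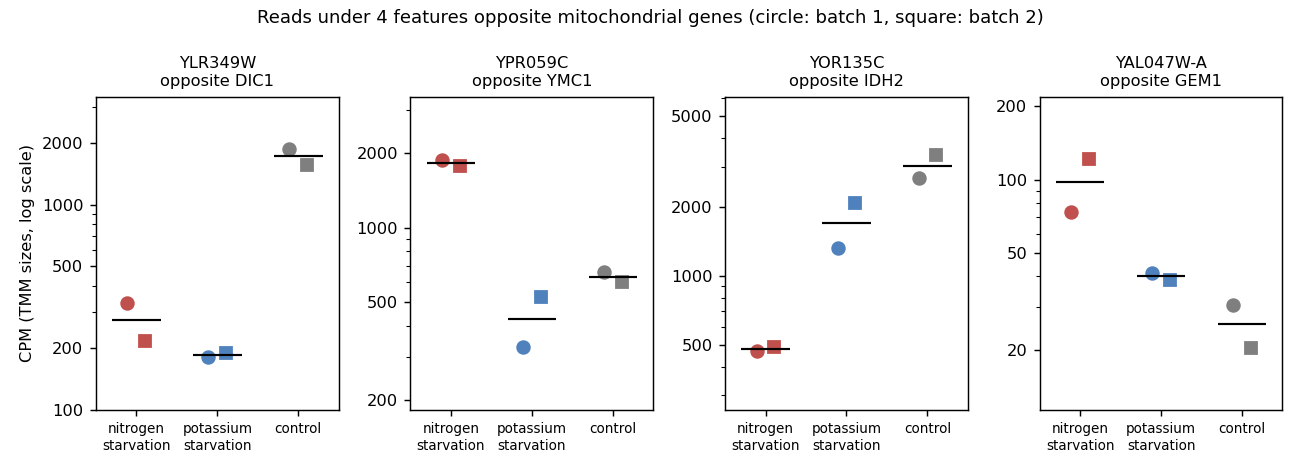
Reads under each feature in CPM on TMM sizes (log axis, with its own range in each panel), one point per library and a line at the mean of 2. The nitrogen libraries lie below the control for DIC1 (332 and 217 against 1867 and 1566 CPM) and IDH2 and above it for YMC1 and GEM1, and in potassium starvation the DIC1 feature stands at 180 and 190 CPM.

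Potassium starvation was compared with the control to see which transcripts respond to the loss of potassium. Of the 4 features only that opposite DIC1 was called, where 9.33% of all tested features were called (4.73% higher and 4.6% lower) and 22.1% of paired ones (6.4% higher and 15.7% lower). With the second scaling, which also called DIC1 alone, 9.85% of all features were called (6.11% higher and 3.74% lower) and 23.5% of paired ones (8.72% higher and 14.8% lower). The DIC1 feature held 65 and 44 reads in the potassium libraries, against 549 and 384 in the control libraries. In CPM these were 180 and 190 in potassium starvation, close together in spite of the difference between those libraries in ribosomal reads, and 1867 and 1566 in the control. The log2 fold change was -3.22 (SE 0.28, edgeR adjusted p = 0.0013), a 9.30-fold lower level, and -3.01 with the second scaling (adjusted p = 0.0012). It was -3.38 in batch 1 and -3.04 in batch 2, and the call held under every setting run, with adjusted p of up to 0.0039 without 1 library. Of the 344 paired features 1 had a lower log2 fold change than DIC1.

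The other features moved less than their tests could call. The IDH2 feature held 477 and 480 reads in the potassium libraries and 786 and 827 in the control libraries. In CPM it stood at 1319 and 2071 in potassium starvation, both below the control values of 2673 and 3372, with a log2 fold change of -0.84 (SE 0.27, edgeR adjusted p = 0.090). Without potassium library 2, in which ribosomal features took the most reads, it was -1.19 and was called (adjusted p = 0.022). The YMC1 feature had 329 and 522 CPM in potassium starvation and 663 and 604 CPM in the control, a log2 fold change of -0.59 (SE 0.26, edgeR adjusted p = 0.20). The GEM1 feature had 15 and 9 reads in the potassium libraries and 9 and 5 in the control libraries, whose counting intervals overlap, and a log2 fold change of 0.64 (SE 0.52, edgeR adjusted p = 0.47). A change of that size was not called at these counts.

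**Figure D3:**
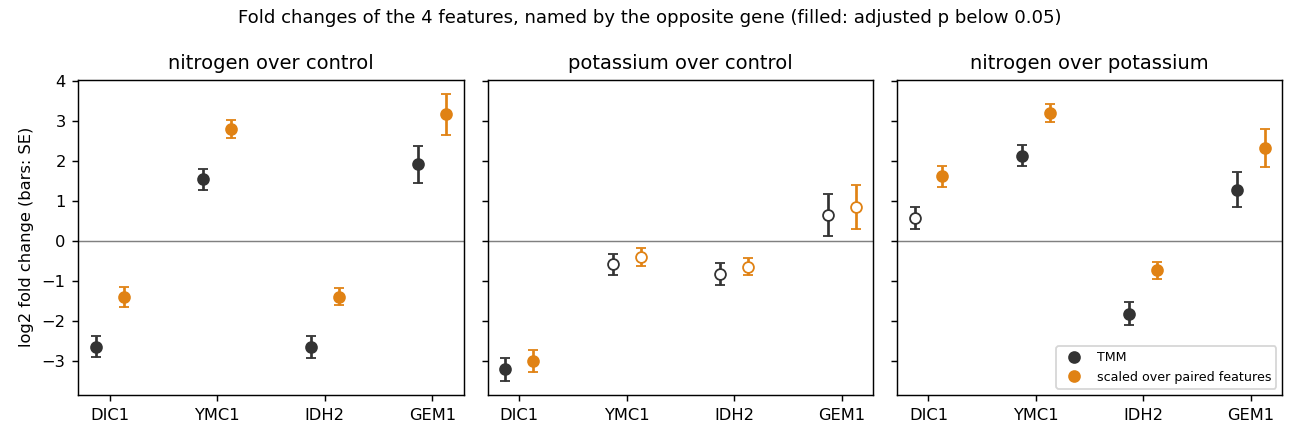
Log2 fold changes of the 4 features, named by the opposite gene, with standard errors, for nitrogen over control, potassium over control and nitrogen over potassium. Black points use TMM sizes and orange points the scaling over paired features; in potassium over control only DIC1 is filled (adjusted p below 0.05), at -3.22 and -3.01.

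The 2 starvations were then compared directly, which tests whether the responses differ. Of the 4 features 3 were called in nitrogen over potassium starvation, where 42.7% of all tested features were called (23.3% higher and 19.4% lower) and 64% of paired ones (5.52% higher and 58.4% lower). With the second scaling all 4 were called, as were 56.6% of all features (48.6% higher and 8.04% lower) and 44.2% of paired ones (18.6% higher and 25.6% lower). YMC1 was higher in nitrogen than in potassium starvation, with 1883 and 1780 CPM against 329 and 522 CPM (log2 2.12, SE 0.26, edgeR adjusted p = 0.00043). IDH2 was lower, with 468 and 490 CPM in nitrogen starvation and 1319 and 2071 CPM in potassium starvation (log2 -1.82, SE 0.28, adjusted p = 0.0012). This fell to -0.74 with the second scaling (adjusted p = 0.016) and was not called with library size alone or on TPM, at -0.35 and -0.043. GEM1 was higher, at 73.8 and 121.8 CPM in nitrogen and 41.5 and 38.8 CPM in potassium starvation (log2 1.27, SE 0.43, adjusted p = 0.042). Because GEM1 passed the filter on low counts through its nitrogen libraries, its call is not read as support here either. That call was lost in 5 of the 6 fits without 1 library, namely each but the fit without nitrogen library 1 (adjusted p up to 0.22). DIC1 had a log2 difference of 0.57 (SE 0.27, adjusted p = 0.12), and was called higher in nitrogen starvation with the second scaling (log2 1.61, adjusted p = 0.0013).

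Ratios of reads between features of one library do not depend on the scaling. There were 0.709 and 0.442 reads opposite DIC1 for each read opposite IDH2 in the nitrogen libraries, 0.136 and 0.0917 in the potassium libraries, and 0.699 and 0.464 in the control libraries. The nitrogen and control libraries thus overlapped, and both potassium values lay below all others. For YMC1 over IDH2 the ratios were 4.03 and 3.63 in nitrogen starvation, 0.249 and 0.252 in potassium starvation, and 0.248 and 0.179 in the control. DIC1 over YMC1 was 0.176 and 0.122 in nitrogen starvation, 0.546 and 0.364 in potassium starvation, and 2.82 and 2.60 in the control, so that YMC1 held more reads than DIC1 in all 4 starved libraries and fewer in both control libraries. With 2 libraries against 2, an exact permutation test of such a ratio cannot give a two-sided p below 0.333, and these ratios are given without a test.

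**Figure D4:**
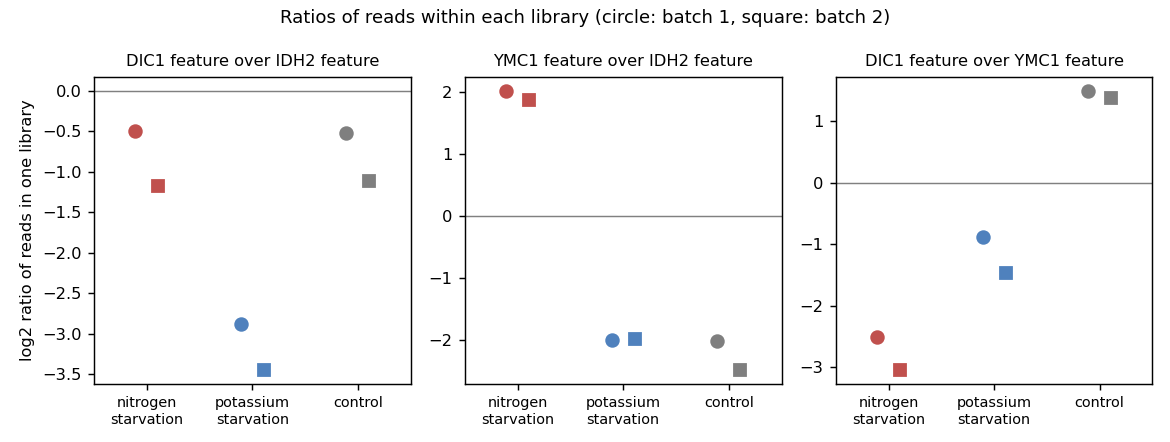
Log2 ratio of reads between pairs of features within each library, named by the opposite genes, one point per library. The DIC1 to IDH2 ratio in the nitrogen libraries (-0.50 and -1.18) lies beside that of the control (-0.52 and -1.11), whereas the potassium libraries are lower (-2.88 and -3.45).

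Levels per effective length (TPM as deposited) ordered the features differently in the 3 groups. In nitrogen starvation the YMC1 feature was the most abundant at 3268 and 2587 TPM, ranks 32 and 33 among the 2325 tested features. It was followed by IDH2 at 1204 and 1057 TPM, while DIC1 (308 and 168 TPM) and GEM1 (218 and 301 TPM) overlapped. In potassium starvation IDH2 led at 1330 and 1014 TPM, before YMC1 at 224 and 172 TPM, and DIC1 (65.4 and 33.5 TPM) overlapped with GEM1 (48.0 and 21.8 TPM). In the control IDH2 also led, at 1683 and 1770 TPM, then DIC1 at 424 and 296 TPM, YMC1 at 281 and 213 TPM, and GEM1 at 22.1 and 12.3 TPM, with no overlap between neighbours. The effective lengths of 81.1 bases for YAL047W-A and 93.0 for YOR135C, against 138 for YPR059C and 258 for YLR349W, make TPM of the short features sensitive to the fragment length assumed.

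The features with the most similar pattern were sought among 680 tested features with a mean of at least 50 reads, by the root mean square difference of log2 CPM after centring each feature on its mean over the 6 libraries. IDH2 had the nearest neighbour, the feature opposite SMI1, a regulator of cell wall synthesis, at 0.090, followed by those opposite CCT2, a subunit of the cytosolic chaperonin, at 0.146 and SEC61, the channel of the endoplasmic reticulum, at 0.161. DIC1 had none as close. Its nearest were the features opposite KCC4, a kinase of the bud neck, at 0.598, YIP3, of vesicle transport, at 0.634 and PSD1, the mitochondrial phosphatidylserine decarboxylase, at 0.644. The PSD1 feature held 157 and 160 reads in nitrogen starvation, 75 and 70 in potassium starvation, and 284 and 177 in the control. The features most like YMC1 and GEM1 were not opposite a gene under the pairing rule. For YMC1 they were PRM1, at 0.199, YML083C, at 0.22, and YFR056C, at 0.252, and for GEM1 they were YDR222W, at 0.140, MNN4, at 0.169, and FOX2, at 0.268, all under their own identifiers. Between members the difference was 0.614 for YMC1 and GEM1, 1.13 for DIC1 and IDH2, and 1.74 to 1.98 for the other pairs.

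Genes beside the 4 loci were read under their own identifiers only. Of 8 flanking genes 5 passed the filter on low counts. KAP95, SPC72, BRR1 and ORM2 held at most 8 reads in any potassium or control library, so they passed that filter through their nitrogen libraries, and their direction is given as values only. In nitrogen over control 25.8% of all tested features were called higher, or 56.0% with the second scaling. KAP95, an importin subunit beside DIC1, held 119 and 111 reads in nitrogen starvation and 1 and 1 in the control. SPC72, a spindle pole body protein upstream of GEM1, held 39 and 67 reads in nitrogen starvation, 1 and 0 in potassium starvation, and 0 and 2 in the control. BRR1, a splicing factor beside YMC1, held 51 and 46 reads in nitrogen starvation and 4 and 1 in the control. ORM2, a regulator of sphingolipid synthesis beside DIC1, held 14 and 13 reads in nitrogen starvation and 0 in both control libraries. Because the filter selected KAP95, SPC72, BRR1 and ORM2 by the group where they were highest, their tests are not read as support for a rise. BAG7, beside IDH2, held 236 and 126 reads in nitrogen starvation and 46 and 26 in the control (log2 0.85, edgeR adjusted p = 0.13), and was called with batch as a block (adjusted p = 0.040). The part of these reads in the members' values was not tested.

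Among 6 lists of mitochondrial and related genes, 10 genes had an opposite feature, the 4 members and 6 others, and all 10 features were tested. Of the 32 mitochondrial carriers, 3 had such a feature: DIC1, YMC1 and HEM25, which brings glycine into mitochondria for haem synthesis. HEM25 had 51.8 and 40.6 CPM in nitrogen starvation, 246.1 and 189.8 CPM in potassium starvation, and 153.0 and 163.1 CPM in the control. Its fall in nitrogen starvation (log2 -1.77, SE 0.33, edgeR adjusted p = 0.0027) was not called with the second scaling (-0.52, adjusted p = 0.23), and in potassium starvation it had 0.47 (adjusted p = 0.37). In nitrogen over potassium HEM25 had -2.24, or -1.21 with the second scaling (adjusted p = 0.00093 and 0.019), and was not called with library size alone (-0.89, adjusted p = 0.17) or on TPM (-0.49, limma adjusted p = 0.45).

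MAE1, the mitochondrial malic enzyme, was the only listed gene beside DIC1 called in potassium starvation among these 10. It had 586 and 906 CPM in potassium starvation and 2289 and 2023 CPM in the control (log2 -1.54, SE 0.27, edgeR adjusted p = 0.011, or -1.36 and 0.0076 with the second scaling), and was not called on TPM (-1.27, limma adjusted p = 0.21). In nitrogen starvation its log2 fold change was -1.77 (adjusted p = 0.0010), but -0.53 with the second scaling (adjusted p = 0.063). IDH2 was the only 1 of 17 citric acid cycle genes with an opposite feature.

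Of 20 genes for mitochondrial shape and inheritance, 4 had an opposite feature. GEM1 rose and NUM1, which anchors mitochondria and dynein at the cell cortex, fell in nitrogen starvation (log2 -1.73, SE 0.25, edgeR adjusted p = 0.00077), though NUM1 had -0.48 with the second scaling (adjusted p = 0.15). MDM34, of the tether between endoplasmic reticulum and mitochondria, had a log2 fold change of 0.21 (adjusted p = 0.52), or 1.47 with the second scaling (adjusted p = 0.00053). MDM31, of the inner membrane, had 0.85 (adjusted p = 0.071), or 2.09 (adjusted p = 0.0011). TIM9, a chaperone of protein import in the intermembrane space, had -1.0 (adjusted p = 0.012), and 0.26 with the second scaling (adjusted p = 0.43). The TIM9 call was also lost with DESeq2 (adjusted p = 0.071), with no filter (0.16), without control library 2 (0.061) and without nitrogen library 1 (0.11). In nitrogen over control 3 of these 10 features, HEM25, MAE1 and NUM1, fell with TMM but were not called with the second scaling, and TIM9 changed sign. MDM34 and MDM31 were not called with TMM and were called higher with the second scaling. The 4 members were called in the same direction under both, with the limit given above for GEM1. The members were chosen with earlier results of these data known, so no contrast with the other features is read from this.

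**Figure D5:**
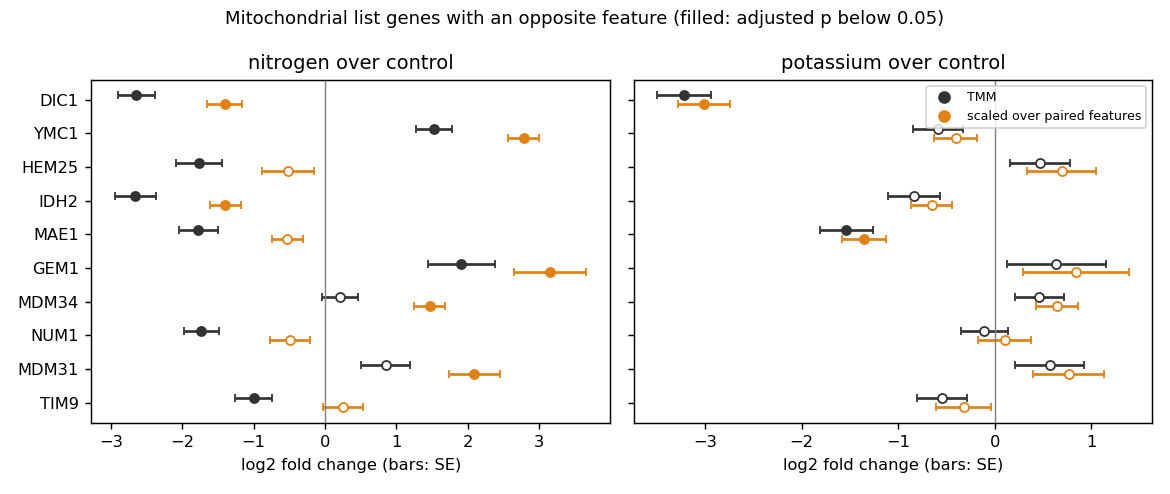
Log2 fold changes with standard errors of the 10 features opposite listed mitochondrial genes, named by the gene, for nitrogen over control (left) and potassium over control (right), with filled points at an adjusted p below 0.05. Only DIC1 (-3.22) and MAE1 (-1.54) are filled for potassium, and for nitrogen DIC1, YMC1, IDH2 and GEM1 are filled under both scalings.

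Under their own identifiers few listed genes held enough reads to be tested, and these values are reads on the strand that is poor in reads at most loci. Several passed the filter on low counts through the nitrogen libraries alone, so no count of those that rose is read from them and they are given as reads only. The genes named here and in the next paragraph had the largest called changes of their list, so the naming drew on these same values. Of the 32 carriers 7 were tested. CRC1, the carnitine carrier, held 40 and 38 reads in nitrogen starvation and 0 in the other 4 libraries. PIC2, a carrier of copper and phosphate, held 179 and 142 reads in nitrogen starvation, 8 and 4 in potassium starvation, and 2 and 2 in the control. TPC1, the thiamine pyrophosphate carrier, was the only 1 of the 7 called in potassium over control, with 76 and 65 reads in potassium starvation and 17 and 19 in the control (log2 1.86, SE 0.33, edgeR adjusted p = 0.011). Leaving out control library 1 ended that call (0.054).

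Of the other lists 7 of 19 identifiers were tested for the retrograde and glutamate list, 5 of 20 for mitochondrial shape, 7 of 35 for the respiratory chain and ATP synthase, 3 of 29 for protein import and 1 of 17 for the citric acid cycle. MKS1, a negative regulator of retrograde signalling from mitochondria to nucleus, held 252 and 149 reads in nitrogen starvation, 2 and 3 in potassium starvation, and 6 and 7 in the control. IDP3, the peroxisomal isocitrate dehydrogenase, held 67 and 90 reads in nitrogen starvation and 6 and 4 in the control. MDM31 held 39 and 53 reads in nitrogen starvation and 4 and 2 in the control. NDE2, an external NADH dehydrogenase, held 104 and 91 reads in nitrogen starvation and 6 and 11 in the control (adjusted p = 0.0065, or 0.058 without control library 1). The internal enzyme NDI1 held 12 and 11 reads in nitrogen starvation and 0 in both control libraries. TIM22, the import channel for carrier proteins, held 34 and 25 reads in nitrogen starvation and 0 in the other 4 libraries. In potassium over control MDM32, of the inner membrane, rose with 134 and 43 reads in potassium starvation and 0 and 6 in the control (adjusted p = 0.016), which was not called when potassium library 1 was left out (0.062). GDH3, a glutamate dehydrogenase, fell with 20 and 17 reads in potassium starvation and 54 and 42 in the control (log2 -1.48, SE 0.32, adjusted p = 0.023). That call ended when either control library or potassium library 1 was left out (0.060 to 0.12).

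The promoters of the opposite genes were examined because reads under the YMC1 and GEM1 features rose in nitrogen starvation while those under the DIC1 and IDH2 features fell. Windows of 220 bases, from 250 to 31 bases before each start codon, were searched on both strands for 6 short motifs, which do not overlap in these windows, and compared with the same window of 6001 protein-coding genes. YMC1 holds TGACTC, the core bound by Gcn4, the activator of amino acid synthesis genes, and GATAAG, a motif of the GATA factors of nitrogen regulation. GEM1 holds TGACTC on its other strand and GTCAC, a motif of the Rtg factors. IDH2 holds CCAAT, the motif of the Hap complex, on its other strand. DIC1 holds none of the 6, and CCCCT (Msn2 and Msn4) and CACGTG (Cbf1) were in none of the 4 windows. Of all windows 5.78% hold TGACTC, 11.1% GATAAG, 19.7% GTCAC, 31.9% CCAAT, 16.9% CCCCT and 2.55% CACGTG. Of the GEM1 window 51 bases lie in the coding region of SPC72, and its TGACTC, 247 to 242 bases before the start codon, is there. A match is a stretch of letters and was not tested as a site. The files do not tell whether the reads under a feature are the message of the gene whose window was searched. A link between a match and a change in reads was not tested. The windows with a match are given on the gene's strand, 5′ to 3′, from R64, with the matches in capitals.
YMC1 (chrXVI:673501-673720, plus strand): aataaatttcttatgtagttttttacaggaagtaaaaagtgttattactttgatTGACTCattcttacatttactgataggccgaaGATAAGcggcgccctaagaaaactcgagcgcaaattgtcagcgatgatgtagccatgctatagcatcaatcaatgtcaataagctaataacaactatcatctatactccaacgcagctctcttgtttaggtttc
GEM1 (chrI:54820-55039, minus strand): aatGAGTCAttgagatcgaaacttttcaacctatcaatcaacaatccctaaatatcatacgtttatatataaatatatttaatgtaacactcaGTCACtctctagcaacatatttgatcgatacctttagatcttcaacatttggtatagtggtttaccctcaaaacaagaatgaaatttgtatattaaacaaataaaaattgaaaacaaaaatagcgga
IDH2 (chrXV:580000-580219, plus strand): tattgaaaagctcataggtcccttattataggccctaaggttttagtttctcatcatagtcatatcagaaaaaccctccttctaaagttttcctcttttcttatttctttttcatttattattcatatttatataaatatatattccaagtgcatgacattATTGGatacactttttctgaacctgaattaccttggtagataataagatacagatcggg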

How the data were processed

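RNA was measured in 6 libraries. The authors' deposited files hold estimated counts and TPM per feature in the columns that salmon writes, per the file headers. A second deposited table holds a signal, counts divided by 1 size factor per library and named as DESeq2-normalised. Multiplied back, 100% of its values were whole and equal to the rounded estimated counts, within 0.001 reads. STAR 2.7.3a, build R64 and DESeq2 are named, per the submitters' processing notes. No source used here gives the quantifier's version or strand setting; the library kit, per the labels, was KAPA mRNA HyperPrep, which keeps strand. The reference is R64 too.

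Of the features missing from the annotation, 591 were placed by searching 2000 bases around genes of neighbouring numbers. Another 489 were not placed and so could not be paired. The search found 5443 of 5628 annotated genes once, 5437 of them in place. A feature was paired when 50% or more of its length (100 bases or more) faced a single annotated gene, a protein-coding one (377 features). Estimated counts were rounded and tested with edgeR 4.0.16 (R 4.3.3), TMM and filterByExpr, with 6 libraries in 1 fit and 3 residual degrees of freedom. DESeq2 1.42.0 and limma 3.58.1 on log2 of TPM or normalised counts plus 1 were alternatives. Standard errors are the fold change over the root of the F statistic. The procedure was tested on simulated data.

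Batch numbers pair the libraries, per the labels; deviations of same-numbered libraries correlated at 0.064, -0.0011 and 0.00069. Named genes were the members, the genes opposite and beside them, listed genes with a paired feature, up to 2 called identifiers per list, and the 3 features most like each member. The members and lists were chosen with earlier results of these data known. Likeness used a prior count of 2.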

Additional observations from a re-analysis of the deposited data

How the results depend on the processing

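Under the other settings each member kept its direction in each comparison. Without 1 library the log2 fold changes ran, for nitrogen over control, from -2.98 to -2.31 (DIC1), 1.47 to 1.63 (YMC1), -2.81 to -2.48 (IDH2) and 1.57 to 2.25 (GEM1). For potassium over control they ran from -3.35 to -3.08, -0.94 to -0.22, -1.19 to -0.49 and 0.38 to 0.97, and for nitrogen over potassium from 0.24 to 0.91, 1.69 to 2.49, -2.23 to -1.45 and 0.93 to 1.59. On TPM with limma DIC1 and IDH2 had -0.64 and -0.61 for nitrogen over control and were not called. For nitrogen over potassium IDH2 was not called with library size alone (-0.35) or TPM (-0.043), nor GEM1 with DESeq2 (1.49) or in the fit of 2 groups (1.25). DIC1 was called there with library size alone (1.98), the paired scaling (1.61, or 1.60 with the replicate block), no filter (0.96) and TPM (2.26). The cause was not tested. GEM1 was filtered out of the potassium and control fit of those groups alone, and DESeq2 gave no adjusted p for ORM2 and NDI1 in nitrogen over control.

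With the replicate block (batch) 1043, 231 and 967 features were called for nitrogen over control, potassium over control and nitrogen over potassium, against 1075, 217 and 992 without it. The block called BAG7 (0.83) for nitrogen over control. NDI1 (5.79) for nitrogen over control and ORM2 (3.25) for nitrogen over potassium were called without the block and not with it. Both had passed the filter on low counts through their nitrogen libraries. The block changed no call of the members or of the other features opposite listed genes. Ratios of reads within a library involve no scaling; no alternative was run for the likeness measure, in which the prior count does not cancel at low counts.

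Counts of all called features moved with the scaling. For nitrogen over control (601 higher, 474 lower) the paired scaling gave 1301 and 181, or 1244 and 185 with the block, library size alone 1449 and 120, and TPM 1589 and 94, 1683 in all. For potassium over control (110 and 107) library size alone gave 73 and 43, 116 in all, TPM 17 and 5, 22 in all, and no filter 72 higher. For nitrogen over potassium (542 and 450) the paired scaling gave 1129 and 187, or 1062 and 184 with the block, library size alone 1201 and 99, and TPM 1383 and 71. Without 1 library the ranges were 768 to 1142 called, 399 to 606 higher and 369 to 552 lower for nitrogen over control, 99 to 256, 59 to 127 and 40 to 129 for potassium over control, and 672 to 1034, 330 to 549 and 326 to 488 for nitrogen over potassium.

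Signs turned for other listed genes. For nitrogen over control TPM gave HEM25 0.25, MAE1 0.25, NUM1 0.30 and TIM9 1.01, and TIM9 had 0.69 with library size alone and 0.26 with the paired scaling, with or without the block. For nitrogen over potassium MAE1 (-0.24 with TMM) had 1.24, 0.83, 1.52 and 0.82 with library size alone, paired scaling, TPM and paired scaling with the block, and MDM34 (-0.25) had 1.22, 0.82, 1.51 and 0.83. TPM gave NUM1 0.12 and TIM9 1.28 there. The paired scaling with the block was chosen after seeing the data. Reads of 5 to 90 under the GEM1 feature limit what can be said of it.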
